A study of Mus musculus with 6 samples.

Results

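The 7 genes described here respond to or carry the glucocorticoid signal, and were followed across the immune cells of the mouse kidney, in healthy animals and after rhabdomyolysis, in which broken-down muscle injures the kidney. The genes were Fkbp5, Tsc22d3, Klf9, Per1, Nr3c1, Dusp1 and Sgk1, taken by name from the 32285 genes of the deposited feature lists, in which all 7 were found once each. They were chosen by name with results of these data in view, namely their UMI counts in control and rhabdomyolysis libraries. The counts of members below are therefore descriptions, and nothing is read from them. The p-values of members come from the same libraries, so they too are descriptions and not independent support. The cell classes were selected on the UMIs of marker genes.

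The mice were C57BL/6J, aged 8 weeks. Their kidneys were digested with collagenase and DNase, and live cells carrying CD45, the surface protein of leukocytes, were sorted for droplet-based 3' single-cell RNA sequencing. Control mice gave 3 libraries, and mice with acute kidney injury after rhabdomyolysis gave the other 3. How the injury was induced, the time after it and any drug given are not stated in the sources used here. The labels do not say that libraries of a group came from separate animals, so p-values reflect only how much these libraries vary, and that variation may be technical.

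Libraries held between 10816727 and 22656666 gene UMIs (unique molecular identifiers, each standing for 1 captured RNA molecule), and 10651 of 12264 eligible cells were placed in 7 classes by the UMIs of 10 marker genes per class. Control libraries gave 567 to 700 T cells, 236 to 428 B cells, 52 to 100 NK cells, 954 to 1661 macrophages, 20 to 43 monocytes, 64 to 89 dendritic cells and 9 to 11 neutrophils. Rhabdomyolysis libraries gave 86 to 126 T cells, 41 to 92 B cells, 20 to 97 NK cells, 407 to 577 macrophages, 179 to 326 monocytes, 13 to 39 dendritic cells and 100 to 138 neutrophils. Dendritic cells and neutrophils had under 20 cells in at least 2 libraries of 1 group and were not part of the main tests. Barcodes poor in Malat1, an abundant nuclear RNA, were left out, and they made up 10.9 to 19.3% of called cells in control libraries and 20.7 to 49.9% in rhabdomyolysis libraries, with the highest share in replicate 3. Pairs of libraries shared 0 to 6 cell barcodes.

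Glucocorticoids are steroid hormones of the adrenal gland that rise in stress and damp inflammation. They bind the glucocorticoid receptor, the product of Nr3c1, which is held ready in the cytoplasm by heat shock protein chaperones and then enters the nucleus and binds DNA at glucocorticoid response elements. Among its usual targets, Fkbp5 encodes a co-chaperone that lowers hormone binding and so closes a feedback loop, Tsc22d3 encodes the anti-inflammatory protein GILZ, and Dusp1 encodes a phosphatase that switches off MAP kinases. Klf9 encodes a transcription repressor, Per1 a repressor of the circadian clock, and Sgk1 a kinase known for ion transport and cell survival. Several of these genes also answer other signals: Dusp1 answers stress kinases, Per1 answers cyclic AMP and Sgk1 answers osmotic and growth factor signals.

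Short promoter stretches are shown because they carry the response element and the 2 other motifs looked for near the starts of these genes, and they were read from RefSeq sequences of build GRCm38.p6. For 6 members, 14 windows of 250 bases before a transcript start were searched on both strands, on which each motif reads the same. The motifs were the palindromic glucocorticoid response element, TGACGTCA (a cyclic AMP response element) and CACGTG (an E-box, bound by clock factors), and they do not overlap in these windows. Across 32851 windows of that length in the table, 0.387%, 1.55% and 6.02% held each motif. Capitals mark the motif and 8 bases stand on each side.
Sgk1 response element, chr10:21993694-21993722, + strand: tgcggaaaGAACAGAATGTTCtcggagat
Dusp1 cyclic AMP element, chr17:26508600-26508623, - strand: agggcgggTGACGTCAccgcccgg
Fkbp5 E-box, chr17:28486305-28486326, - strand: gggccagaCACGTGggcagcgg
Per1 E-box, chr11:69098775-69098796, + strand: cccaagtcCACGTGcagggatg
The Sgk1 site began 188 bases before 1 of the 6 starts listed for this gene, and was the only response element found in the 14 windows. The same window held an E-box that began 246 bases before the start, so that E-boxes were found in windows of Dusp1, Fkbp5, Per1 and Sgk1. The windows of Klf9 and Tsc22d3 held none of the 3 motifs. A match describes these letters only, and response elements farther away than 250 bases were outside the search. The Dusp1 window is given whole because 2 motifs lie close together in it, chr17:26508473-26508722 on the - strand, upstream of the gene.
Dusp1 window: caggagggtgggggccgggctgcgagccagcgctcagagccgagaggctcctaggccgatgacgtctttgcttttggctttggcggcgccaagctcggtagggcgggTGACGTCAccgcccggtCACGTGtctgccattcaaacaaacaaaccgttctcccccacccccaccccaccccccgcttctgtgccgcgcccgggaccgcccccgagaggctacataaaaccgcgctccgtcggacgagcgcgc

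Levels are given as CPM, the UMIs of a gene per 1000000 UMIs summed over the cells of a class in 1 library, in the order control replicates 1, 2 and 3 and then rhabdomyolysis replicates 1, 2 and 3. Changes are log2 rhabdomyolysis minus control with their standard error (SE), from the edgeR quasi-likelihood test on those sums, with p-values adjusted over all genes tested in the class and called under 0.05.

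In T cells 5 of 7 members were higher in rhabdomyolysis and none lower, where 6.27% of 8060 genes were higher, 3.9% lower and 10.2% changed in either direction. In B cells 3 of the 4 members tested were higher and none lower, where 2.13% of 4981 genes were higher, 2.09% lower and 4.22% either. In macrophages 5 of 7 were higher (20.6% of 10123 genes) and 1 was lower (20.4%, and 41% either), and in monocytes 5 of 7 were higher (11.4% of 6782 genes) and none lower (12.7%, and 24.1% either). In NK cells 0 of 4 members tested passed edgeR, where 2.4% of 2958 genes were higher, 1.72% lower and 4.12% either. An unadjusted edgeR p under 0.05 was reached by 2 of the 4 and by 548 of the 2958 genes. DESeq2 called 1 member there, Klf9, which was too low to be tested by edgeR. It called 58 of the 32285 genes listed (0.18%). That base includes genes without a UMI or an adjusted p in NK cells, so the share cannot be set beside the 4.12%. The median log2 change of the members tested was 1.74 in T cells, 1.10 in B cells, 0.74 in NK cells, 2.34 in macrophages and 1.54 in monocytes, beside medians over all genes between -0.04 and 0.01. The CPM of the groups did not overlap for 5 members in T cells (33.7% of genes tested) and 3 in B cells (23.9%). It did not overlap for 3 in NK cells (25%), 6 in macrophages (53.7%) and 6 in monocytes (41.5%). Of the 3 in NK cells, Klf9 and Per1 were too low to be tested. This leaves only Fkbp5 among the 4 NK members tested to set beside the 25%.

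**Figure D1:**
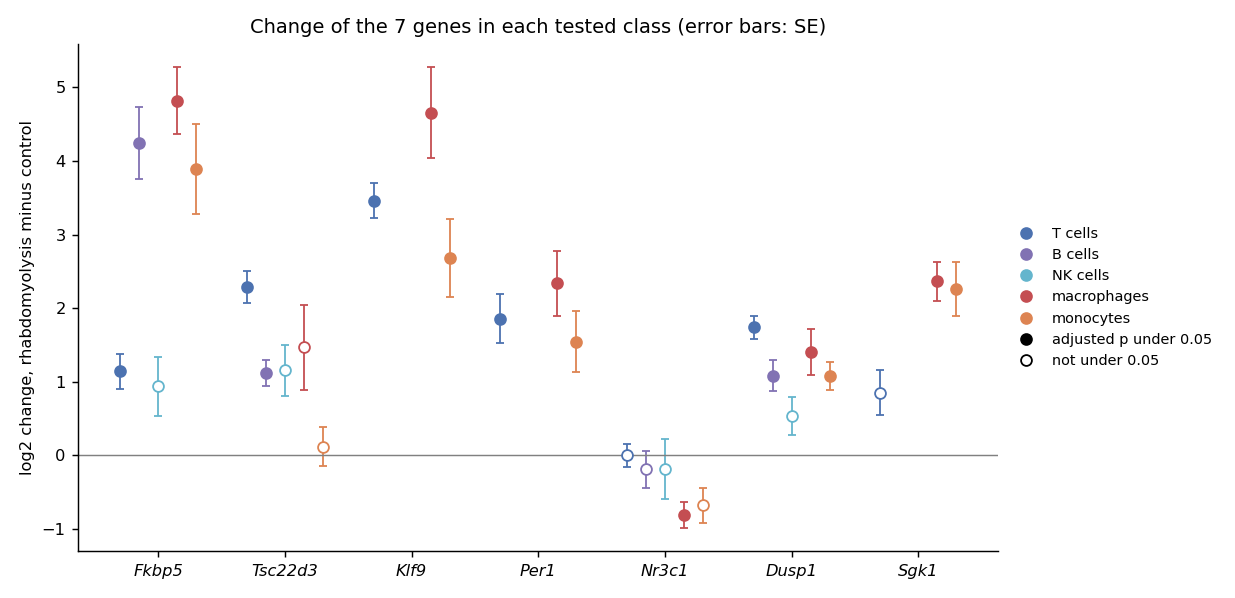
Log2 change (rhabdomyolysis minus control, vertical axis) of each of the 7 genes (horizontal axis) in the 5 tested classes, as points with SE bars, filled where the edgeR adjusted p was under 0.05. Fkbp5 and Klf9 reach above 4 in macrophages, and Nr3c1 lies at or below 0 in B cells, NK cells, macrophages and monocytes.

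Nr3c1, the receptor gene itself, was the member that did not rise. In macrophages its level was 120, 131 and 110 CPM in controls and 51.3, 78.5 and 63.7 CPM in rhabdomyolysis. All 3 injured libraries lay below all controls, and the log2 change was -0.81 (SE 0.18, edgeR adjusted p = 0.00656). In monocytes it was 57.8, 82.9 and 77.5 CPM against 41.2, 47.9 and 45.9 CPM, groups that did not overlap, with a log2 change of -0.68 (SE 0.24, edgeR adjusted p = 0.0501). T cells held 144, 141 and 145 CPM against 117, 115 and 141 CPM, and their fitted log2 change was 0.00 (SE 0.16, edgeR adjusted p = 0.999). The sign of that T cell value turned under several settings, since it lies at 0. The log2 change was -0.19 in B cells (SE 0.25, edgeR adjusted p = 0.77) and -0.19 in NK cells (SE 0.40, edgeR adjusted p = 0.869), and the groups overlapped in both. NK cells had a mean of 112 CPM (66.2 to 164) in controls and 56.4 CPM (21.1 to 106) in rhabdomyolysis. Their log2 change rested on 3, 1 and 42 UMIs in the rhabdomyolysis libraries. It was 0.15 without control replicate 2, and more negative without rhabdomyolysis replicate 3.

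Fkbp5, the feedback co-chaperone, was higher in rhabdomyolysis than in every control library in all 7 classes. In the classes with a main test, groups did not overlap for 23.9 to 53.7% of genes tested. No such share was taken for dendritic cells and neutrophils. The neutrophil controls rested on 2 Fkbp5 UMIs from 30 cells. An edgeR fit of neutrophils made without a minimum of cells gave a log2 change of 2.84 (SE 0.86, edgeR adjusted p = 0.0841). Macrophages went from 7.5, 7.11 and 5.82 CPM to 172, 289.7 and 83.0 CPM. The lowest injured library was thus far above the highest control, and the log2 change was 4.82 (SE 0.46, edgeR adjusted p = 0.000172). Monocytes held 8.67, 12.3 and 0 CPM in controls and 126, 182 and 61.5 CPM in rhabdomyolysis, with a log2 change of 3.89 (SE 0.62, edgeR adjusted p = 0.000465). The control monocyte values rested on 3, 4 and 0 UMIs. B cells held 5.31, 9.24 and 2.57 CPM against 49.1, 176 and 57.7 CPM, and the log2 change was 4.24 (SE 0.49, edgeR adjusted p = 6.75e-06). Replicate 2 stood highest there, and without it the log2 change in B cells was 3.28. Without removal of doublets it was 3.61.

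Lymphocytes other than B cells began from a higher control level of Fkbp5. T cells held 23.5, 28.6 and 30.6 CPM in controls and 56.5, 50.1 and 54.2 CPM in rhabdomyolysis. The groups did not overlap, and the log2 change was 1.14 (SE 0.24, edgeR adjusted p = 0.00541). Free RNA, estimated from the RNA outside cells, made up 11.4, 31.7 and 8.6% of the Fkbp5 UMIs of rhabdomyolysis T cells and 1.0 to 2.5% of those in controls. One estimate used haemoglobin and kidney tubule genes, and another used genes of the other lineage, myeloid for lymphocytes and lymphoid for myeloid cells. The larger was taken for each class and library. With the free RNA subtracted the log2 change in T cells was 1.0 (edgeR adjusted p = 0.0255), and under a stricter gate it was 0.78 (edgeR adjusted p = 0.204). NK cells held 24.8, 47.5 and 49.6 CPM against 99.4, 84.3 and 55.3 CPM, which did not overlap but did not pass (log2 change 0.94, SE 0.40, edgeR adjusted p = 0.222).

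In controls Fkbp5 was highest in NK cells (40.6 ± 13.7 CPM, SD, n = 3) and T cells (27.6 ± 3.65 CPM), followed by neutrophils, dendritic cells, monocytes, macrophages and B cells (5.71 ± 3.35 CPM). In rhabdomyolysis the order ran from macrophages (181.6 ± 104 CPM), neutrophils, monocytes and dendritic cells to B cells, NK cells and T cells (53.6 ± 3.22 CPM). Each class overlapped with its neighbour in both orders. The myeloid classes therefore stood below T and NK cells in mean level in controls and above them in rhabdomyolysis.

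The difference between classes was tested in 1 model over 30 sums of class and library with the library as a block. Over 8412 genes 21% differed in change between the myeloid classes (macrophages, monocytes) and the lymphoid classes (T, B and NK cells), and 33.3% differed among the 5 classes in any way. The change of Fkbp5 was larger in the myeloid classes by 2.05 on the log2 scale (SE 0.39, edgeR adjusted p = 0.000194), although B cells, a lymphoid class, changed by 4.24, between the 3.89 of monocytes and the 4.82 of macrophages.

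**Figure D2:**
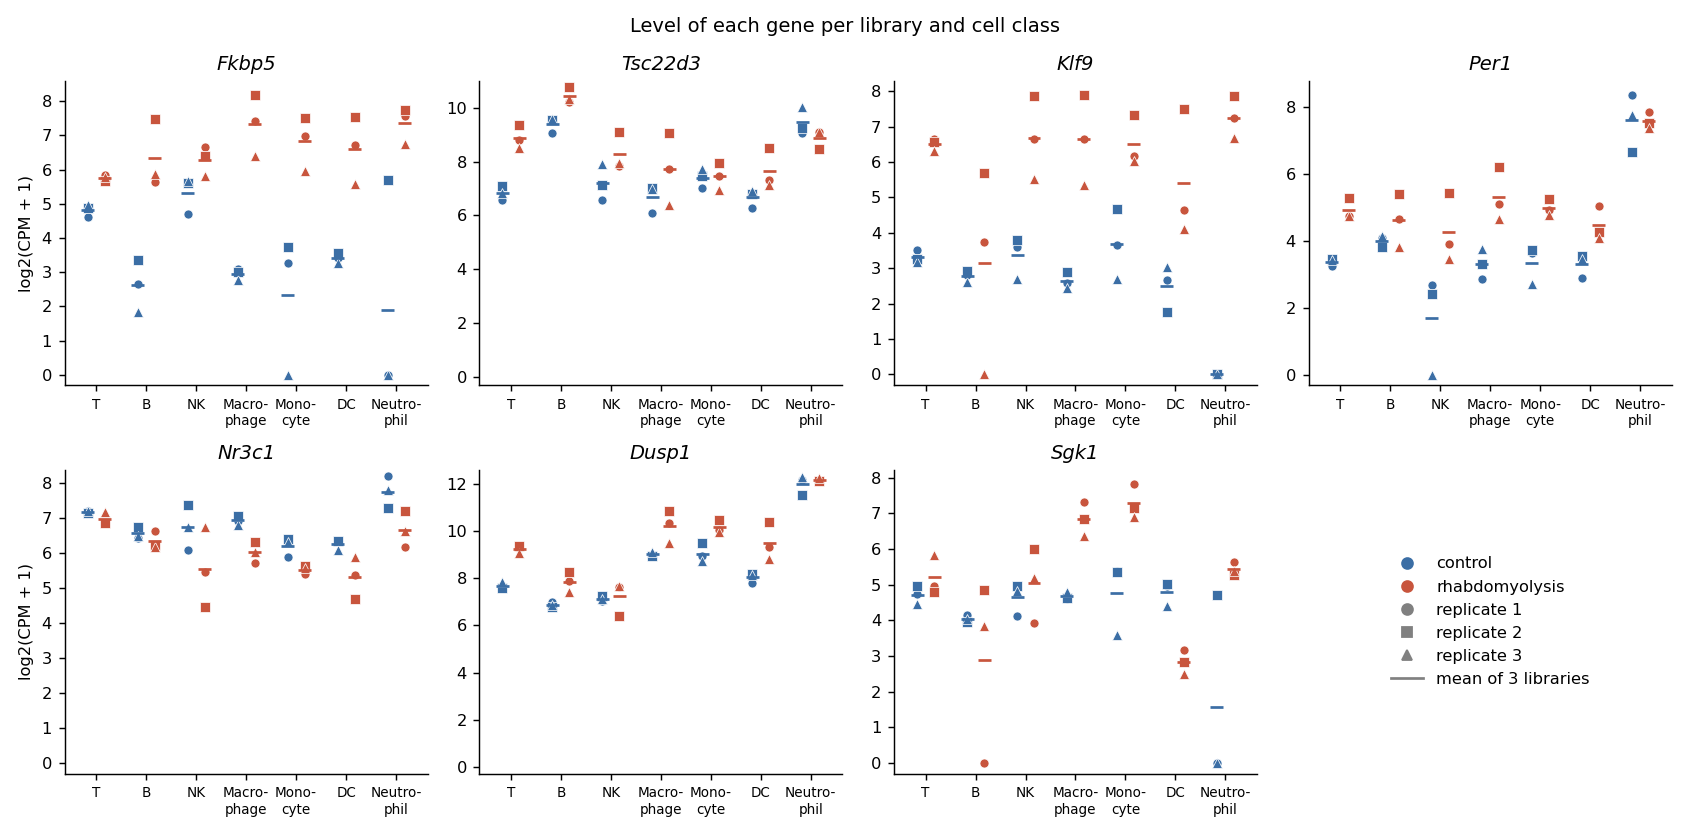
Level of each gene as log2(CPM + 1) (vertical axis) in each library of the 7 classes (horizontal axis), with controls in blue, rhabdomyolysis in red, marker shapes for replicates and a line for the mean of 3 libraries. Fkbp5 is higher in all rhabdomyolysis libraries of every class, and Dusp1 and Per1 stand at like heights in both groups of neutrophils.

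Tsc22d3, which encodes GILZ, differed in where it rose. T cells held 94.8, 134 and 113 CPM in controls and 443, 663.7 and 360.2 CPM in rhabdomyolysis. Every injured library was above every control, and the log2 change was 2.29 (SE 0.22, edgeR adjusted p = 9.04e-06). B cells, where the gene was already abundant, went from 539.7, 745 and 773 CPM to 1189.8, 1732 and 1269 CPM, a log2 change of 1.11 (SE 0.18, edgeR adjusted p = 0.000417). NK cells held 93.8, 138 and 242 CPM against 227, 548 and 249 CPM, with overlapping groups and a log2 change of 1.15 (SE 0.35, edgeR adjusted p = 0.0756). The NK value passed without control replicate 3 (log2 change 1.56, edgeR adjusted p = 0.028).

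Macrophages were uneven for this gene. They held 67.0, 128 and 126 CPM in controls and 209, 539.8 and 82.7 CPM in rhabdomyolysis, so that replicate 3 of the injured libraries lay within the control range. The log2 change was 1.47 (SE 0.58, edgeR adjusted p = 0.0705). It was 1.92 without rhabdomyolysis replicate 3 (edgeR adjusted p = 0.00722) and 0.62 without rhabdomyolysis replicate 2 (edgeR adjusted p = 0.159). Monocytes held 127, 175 and 210.3 CPM against 178, 247 and 123 CPM, with a log2 change of 0.12 (SE 0.26, edgeR adjusted p = 0.797). Free RNA made up as much as 23.4% of these UMIs in 1 injured monocyte library, and with it subtracted the log2 change was 0.077 (edgeR adjusted p = 0.877). In the injured monocytes of replicate 1 haemoglobin and tubule genes gave 24.4% free RNA, and genes of the other lineage 1.53%. The change of Tsc22d3 was smaller in the myeloid than in the lymphoid classes by a log2 value of -0.83 (SE 0.24, edgeR adjusted p = 0.0123), which is the opposite order to that of Fkbp5. This difference did not pass without control replicate 2 (-0.81, edgeR adjusted p = 0.0619) or without rhabdomyolysis replicate 3 (-0.39, edgeR adjusted p = 0.179). Nor did it pass under the stricter gate, which left only macrophages to set against T and B cells (-0.44, edgeR adjusted p = 0.245). Dendritic cells and neutrophils were not part of the contrast. In edgeR fits made without a minimum of cells, Tsc22d3 changed by 1.04 in dendritic cells (SE 0.33, edgeR adjusted p = 0.0712). In neutrophils it changed by -0.59 (SE 0.39, edgeR adjusted p = 0.451).

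Klf9, the transcription repressor, was low in every control class, with means of 0 to 13.9 CPM, and rose in the 3 classes in which it was tested. T cells held 10.3, 8.64 and 7.98 CPM in controls and 99.9, 94.4 and 78.1 CPM in rhabdomyolysis, a log2 change of 3.46 (SE 0.24, edgeR adjusted p = 4.31e-07). The 3 injured libraries lay close together, and free RNA made up at most 9.3% of these UMIs. Macrophages held 5.0, 6.42 and 4.48 CPM against 100.2, 237 and 40.3 CPM, a log2 change of 4.66 (SE 0.62, edgeR adjusted p = 0.000766), and without rhabdomyolysis replicate 2 it was 3.88. Monocytes held 11.6, 24.6 and 5.53 CPM against 70.6, 160.0 and 64.4 CPM, a log2 change of 2.68 (SE 0.53, edgeR adjusted p = 0.00226). It was 2.08 without rhabdomyolysis replicate 2 and 3.41 without control replicate 2.

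In NK cells Klf9 was below the expression filter, with 4, 3 and 1 UMIs in controls and 7, 11 and 18 in rhabdomyolysis. These were 11.0, 12.96 and 5.51 CPM against 99.4, 231.8 and 45.2 CPM, which did not overlap. Without the filter the log2 change was 2.995 (SE 0.54, edgeR adjusted p = 9.47e-06, where 1.14% of genes were called). With the filter kept and 1 library left out it was 2.59 to 3.94, and it did not pass without control replicate 1, 2 or 3 (edgeR adjusted p = 0.109, 0.0782 and 0.0513). B cells held 8, 5 and 4 UMIs in controls and 1, 11 and 0 in rhabdomyolysis, too few to place the groups. Neutrophils had no Klf9 UMI among 86445 UMIs of 30 control cells and 138 in rhabdomyolysis, which is at least 4.8-fold higher against a floor of 3 counts over the group, for counting error only.

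**Figure D3:**
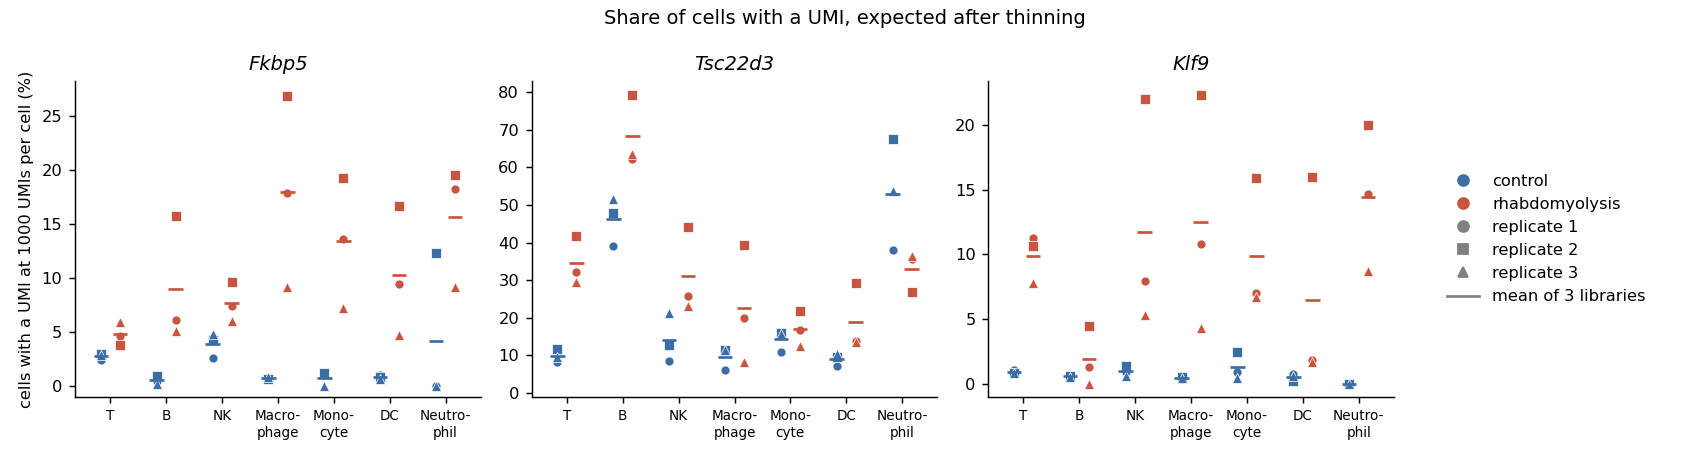
Share of cells with at least 1 UMI (percent, vertical axis) for Fkbp5, Tsc22d3 and Klf9 in the 7 classes (horizontal axis). It is the share expected when each cell of at least 1000 UMIs is thinned to 1000, with 1 point per library and a line for the mean. Rhabdomyolysis replicate 2 holds the highest share of Klf9 in every class but T cells.

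Thinning to 1000 UMIs removes differences in depth between cells, and cells with fewer than 1000 UMIs were left out of the thinned shares. Shares before thinning are over all gated cells. Median depths were 3656 to 3783 UMIs in control T cells and 2314 to 3298 in injured ones. They were 3644 to 4214 in control macrophages and 5244 to 7374 in injured ones. At 1000 UMIs per cell, Fkbp5 was found in 0.70, 0.68 and 0.79% of control macrophages and in 17.9, 26.9 and 9.19% of rhabdomyolysis macrophages. Before thinning the shares were 2.73 to 2.95% in control macrophages and 46.0 to 79.0% in injured ones. Klf9 was found in 1.03, 0.81 and 0.82% of control T cells and in 11.2, 10.6 and 7.79% of injured T cells. Before thinning those shares were 2.55 to 3.43% and 18.3 to 22.8%. Free RNA made up at most 25% of the Fkbp5 UMIs of control macrophages and at most 3.6% in rhabdomyolysis. Haemoglobin and tubule genes gave 3.39 to 13.2% free RNA over all UMIs of control macrophages, and genes of the other lineage 1.11 to 3.43%.

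Per1, the clock repressor, rose in T cells from 8.55, 10.0 and 9.75 CPM to 26.1, 38.4 and 26.0 CPM, a log2 change of 1.86 (SE 0.33, edgeR adjusted p = 0.00177). In macrophages it rose from 6.32, 9.02 and 12.8 CPM to 33.4, 74.0 and 24.5 CPM, a log2 change of 2.34 (SE 0.44, edgeR adjusted p = 0.0036). In monocytes it rose from 11.6, 12.3 and 5.53 CPM to 29.4, 37.2 and 26.5 CPM, a log2 change of 1.54 (SE 0.42, edgeR adjusted p = 0.0156). No groups overlapped in these 3 classes, and without control replicate 1 the monocyte value was 1.70 (edgeR adjusted p = 0.0527). Free RNA was estimated at 2.13 to 24.4% of the UMIs of rhabdomyolysis monocytes (0 to 5.29% in controls) and at up to 29.8% of their Per1 UMIs. The 24.4% was that of rhabdomyolysis replicate 1 and came from haemoglobin and tubule genes, while genes of the other lineage gave 1.53% there. With the larger estimate subtracted the monocyte value was 1.45 (edgeR adjusted p = 0.0269). The values rested on few molecules, with 6, 13 and 12 UMIs in injured T cells and 4, 4 and 1 in control monocytes. Neutrophils carried far more Per1 than other classes, 216.9 ± 114 CPM in controls and 194 ± 34.7 CPM in rhabdomyolysis (SD, n = 3), and their groups overlapped. The control neutrophil level rested on 17 UMIs from 30 cells.

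Dusp1, the MAP kinase phosphatase, was higher in 4 of the 5 classes tested. T cells went from 198, 193 and 229.9 CPM to 626, 667 and 536 CPM, a log2 change of 1.74 (SE 0.15, edgeR adjusted p = 5.06e-06). Macrophages went from 509, 498 and 563 CPM to 1311, 1878 and 721 CPM, a log2 change of 1.41 (SE 0.31, edgeR adjusted p = 0.00737), with replicate 3 the lowest of the injured libraries. Monocytes went from 497, 718 and 421 CPM to 1074, 1433 and 1009 CPM, a log2 change of 1.08 (SE 0.19, edgeR adjusted p = 0.00104). No groups overlapped in these classes. B cells went from 127, 111 and 115 CPM to 233, 306 and 173 CPM, a log2 change of 1.08 (SE 0.21, edgeR adjusted p = 0.00267) that was 0.71 without rhabdomyolysis replicate 2 (edgeR adjusted p = 0.0993). In NK cells the groups overlapped and the log2 change was 0.54 (SE 0.26, edgeR adjusted p = 0.283). Free RNA made up as much as 67.5% of the Dusp1 UMIs in 1 injured NK cell library, and with it subtracted that change was 0.46 (edgeR adjusted p = 0.492). The change of Dusp1 did not differ between myeloid and lymphoid classes beyond the threshold (log2 difference 0.08, SE 0.20, edgeR adjusted p = 0.866), nor did that of Per1 (0.33, SE 0.49, edgeR adjusted p = 0.739) or Klf9 (0.69, SE 0.48, edgeR adjusted p = 0.351). Per1 and Klf9 were too low to be tested alone in B and NK cells, yet those sums entered the contrast.

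Neutrophils were the class with the highest Dusp1, at 4582, 2971 and 5123 CPM in controls and 4526, 4544 and 4983 CPM in rhabdomyolysis. The groups overlapped, although the control values came from 11, 10 and 9 cells. An edgeR fit made without a minimum of cells gave a log2 change of 0.15 (SE 0.29, edgeR adjusted p = 0.812), where 3.79% of 1424 genes were called. In controls the order of Dusp1 ran from neutrophils to monocytes, macrophages, dendritic cells and T cells, and then to NK cells and B cells (117 ± 8.31 CPM, SD, n = 3). Monocytes overlapped with macrophages and dendritic cells with T cells, and the other neighbours did not overlap.

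Sgk1, the kinase gene, rose in the myeloid classes tested. Macrophages held 23.4, 23.6 and 26.6 CPM in controls and 159.7, 113 and 81.9 CPM in rhabdomyolysis, a log2 change of 2.36 (SE 0.27, edgeR adjusted p = 0.000392). Monocytes held 40.4, 39.9 and 11.1 CPM against 226, 141 and 119 CPM, a log2 change of 2.27 (SE 0.37, edgeR adjusted p = 0.000527). The groups did not overlap in either class. T cells held 25.7, 30.01 and 20.8 CPM against 30.4, 26.5 and 56.4 CPM, with overlapping groups and a log2 change of 0.85 (SE 0.31, edgeR adjusted p = 0.0995). Free RNA made up as much as 40.7% of the Sgk1 UMIs in 1 injured T cell library, and with it subtracted that change was 0.60 (edgeR adjusted p = 0.362). Sgk1 was untested in B and NK cells, where rhabdomyolysis libraries held 0 to 6 and 1 to 14 UMIs. The change was larger in the myeloid classes by 1.61 on the log2 scale (SE 0.36, edgeR adjusted p = 0.00126). The lymphoid side of that contrast is the mean over T, B and NK cells. It thus includes the B and NK cell sums that were too low to be tested alone. Unlike the other members, Sgk1 was highest in rhabdomyolysis replicate 1 in 4 of 7 classes.

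Dendritic cells stood apart for Sgk1. They held 30.1, 31.1 and 20.2 CPM in controls and 8.00, 6.16 and 4.65 CPM in rhabdomyolysis, from 28, 26 and 14 UMIs against 1, 1 and 2. An edgeR fit made without a minimum of cells gave a log2 change of -2.28 (SE 0.55, edgeR adjusted p = 0.0197), where 9.08% of 5077 genes were called. In the same fit Fkbp5 rose by 3.28 (SE 0.51, edgeR adjusted p = 0.00148), from 9.67, 10.8 and 8.65 CPM to 104, 185 and 46.5 CPM, and Dusp1 rose by 1.61 (SE 0.33, edgeR adjusted p = 0.00795). The injured dendritic cells numbered 13, 16 and 39, and whether their subsets were the same as in controls was not tested.

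The libraries of a group did not move to the same degree. Over the 6 members other than Nr3c1 and the 7 classes, 42 pairs in all, rhabdomyolysis replicate 2 was the highest injured library in 29 and replicate 3 the lowest in 31. Replicate 3 was the lowest for Klf9 and Per1 in every class. Replicate 3 also had the largest share of Malat1-poor barcodes, and its part in these levels was not tested. With those barcodes kept, the number of members called was the same in each tested class.

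Other genes of the pathway were read from lists chosen with earlier results of these data known. Of 26 other genes that glucocorticoids induce, 11 rose and 1 fell of 17 tested in T cells, with a median log2 change of 1.39 over those tested beside 0.00 over all genes. Nfkbia, the inhibitor of NF-kappaB, rose by 2.61 in T cells, Il7r, the interleukin 7 receptor, by 2.34, and Mt1, a metallothionein, by 3.55, while Anxa1, the annexin linked to resolution of inflammation, fell by 1.80. In T cells the largest rise was that of Cdkn1a, a cell cycle inhibitor, by 3.83. In B cells 7 of 13 rose and none fell (median 1.48), among them Il7r by 5.43 and Ddit4, an inhibitor of mTOR signalling, by 2.87. Il7r was at 0 to 6.83 CPM in control B cells and 22.2 to 245 CPM in rhabdomyolysis, so the size of its change rests on few control UMIs. In NK cells 1 of 10 rose, Nfkbia by 1.76. Of all genes, 6.27% rose and 3.9% fell in T cells, 2.13% and 2.09% in B cells, and 2.4% and 1.72% in NK cells.

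In macrophages 10 of 24 rose and 3 fell (median 0.70), where 20.6% of all genes rose and 20.4% fell. Mt2, another metallothionein, rose there by 7.33 and Il1r2, the decoy receptor for interleukin 1, by 4.71, while Sesn1 fell by 1.45 and Bcl6 by 1.28. In monocytes 6 of 19 rose and 3 fell (median 0.34), where 11.4% of all genes rose and 12.7% fell. Il1r2 rose there by 4.59 and Mt2 by 3.78, while Cd163, a scavenger receptor for haemoglobin, fell by 3.22 and Txnip by 1.11. Adjusted p-values of the genes named from this list were under the edgeR threshold of 0.05 in the class for which each is given.

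**Figure D4:**
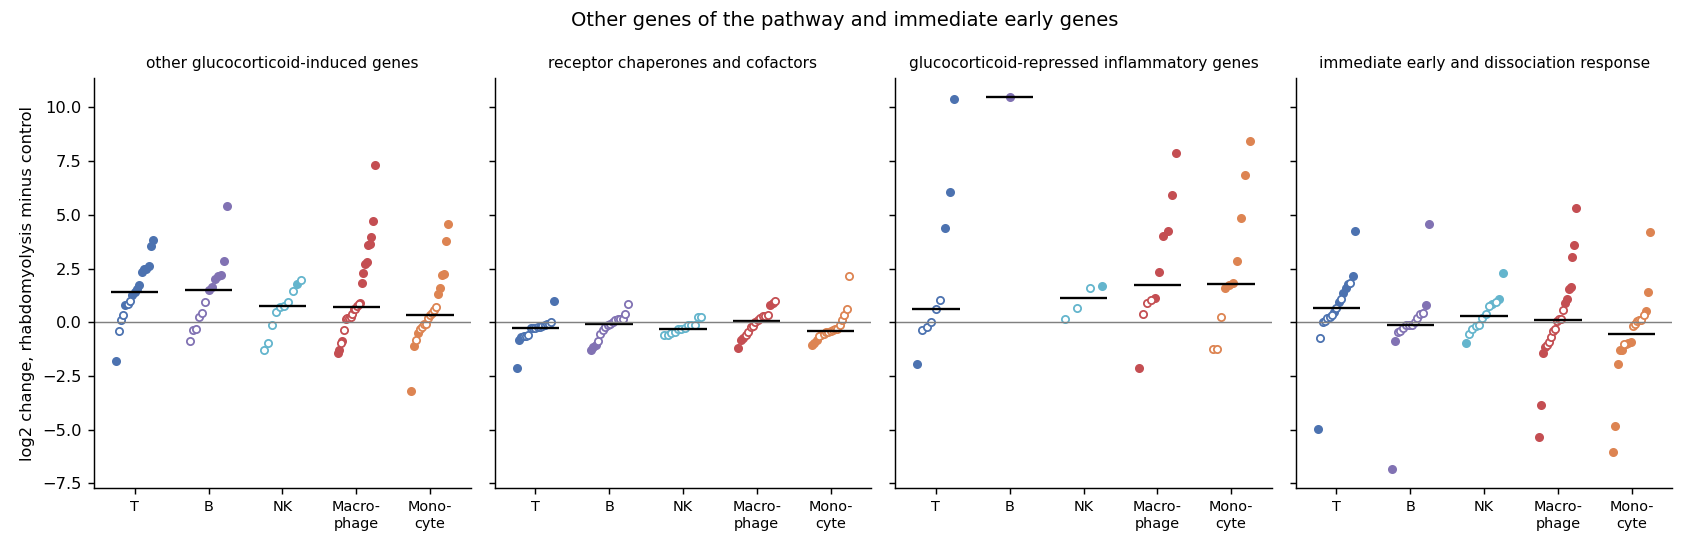
Log2 change (rhabdomyolysis minus control, vertical axis) of the tested genes of 4 lists in the 5 tested classes (horizontal axis), 1 point per gene, filled where the edgeR adjusted p was under 0.05, with a black line at the median. The list of other induced genes has its highest medians in T and B cells, and the chaperones have medians between -0.39 and 0.05.

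The receptor's chaperones and cofactors, 18 genes, had median log2 changes between -0.39 and 0.05. In T cells 1 of 17 tested rose and 3 fell, where 6.27% of all genes rose and 3.9% fell. In B cells 3 of 16 fell (2.09% of all genes), and in NK cells 0 of 12 were called (4.12%). In macrophages 2 of 16 rose and 3 fell, where 20.6% of all genes rose and 20.4% fell. In monocytes 4 of 17 fell (12.7% of all genes). The 3 that fell in B cells were Hsp90ab1 by 1.29, Hspa8 by 1.15 and Hsp90aa1 by 1.05, all chaperones. Hsd11b1, which encodes the enzyme that regenerates active glucocorticoid inside cells, fell by 2.13 in T cells. The coactivator Ncoa3 fell by 1.21 in macrophages and by 1.04 in monocytes.

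Of 14 inflammatory genes that glucocorticoids are known to repress, 6 of 10 tested rose and 1 fell in macrophages, where 20.6% of all genes rose and 20.4% fell. In monocytes 7 of 10 rose and none fell, where 11.4% of all genes rose and 12.7% fell. The neutrophil chemokine Cxcl2 rose by 5.94 in macrophages and 6.87 in monocytes, and the monocyte chemokine Ccl2 by 4.24 and 4.86. Il1a, which encodes interleukin 1 alpha, was at 0 to 0.15 CPM in control macrophages and 11.4 to 23.8 CPM in injured ones, and at 0 CPM in all control monocyte libraries against 24.6 to 38.8 CPM. Its fitted change depends on the prior count and is not given. Ccl5 fell by 2.13 in macrophages. In T cells 3 of 9 rose and 1 fell, where 6.27% of all genes rose and 3.9% fell. Il1b rose by 4.39 in T cells, while Ifng, the interferon gamma gene, fell by 1.96. Ccl2 was at 0 to 3.18 CPM in control T cells and 13.04 to 167 CPM in rhabdomyolysis. Cxcl2 was at 0 to 1.07 CPM against 60.8 to 1324 CPM. In B cells Cxcl2 was at 0 CPM in all 3 controls and at 24.5 to 626 CPM in rhabdomyolysis, and it passed edgeR there too. Il1b, Ccl2 and Cxcl2 are transcripts known from myeloid cells, and free RNA was estimated at 8.53 to 11.8% of the UMIs of rhabdomyolysis T cells against 2.4 to 4.72% in controls. Its share was 1.42 to 5.3% in rhabdomyolysis B cells and 2.51 to 4.28% in control ones, and its part in those rises was not tested. Ccl2 and Cxcl2 are themselves among the myeloid genes used to estimate free RNA in lymphocytes, so these estimates are not independent of their rises.

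Immediate early genes, which enzymatic digestion of tissue can itself induce, are given because Dusp1 and Per1 are also early genes. Of 20, 7 of 17 tested rose and 1 fell in T cells, and 7 of 20 rose and 4 fell in macrophages. In monocytes 3 of 18 rose and 8 fell, in B cells 2 of 14 rose and 2 fell, and in NK cells 3 of 12 rose and 1 fell. Of all genes, 6.27% rose and 3.9% fell in T cells, 20.6% and 20.4% in macrophages, and 11.4% and 12.7% in monocytes. In B cells 2.13% of all genes rose and 2.09% fell, and in NK cells 2.4% and 1.72%. Socs3, a feedback inhibitor of cytokine signalling, rose by 4.26 in T cells, 4.55 in B cells, 2.31 in NK cells, 3.62 in macrophages and 0.54 in monocytes. The heat shock gene Hspa1a fell by 4.98 in T cells, 6.84 in B cells, 3.85 in macrophages and 4.85 in monocytes. Its control libraries stood far apart, at 16.7 to 714 CPM in T cells, where the groups overlapped (0 to 28.2 CPM in rhabdomyolysis), 30.4 to 648 CPM in B cells and 136 to 1949 CPM in monocytes.

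The cells gated as 1 class were not alike in the 2 groups. Of the 10 T cell markers 6 fell in T cells, with a median log2 change of -0.60, and their summed level was 8751 to 9106 CPM in controls and 3667 to 5715 CPM in rhabdomyolysis. Macrophage markers fell for 5 of 10 in macrophages, and 6 of the 8 monocyte markers tested there rose, with a summed monocyte marker level of 331 to 476 CPM in controls and 632 to 871 CPM in rhabdomyolysis. In monocytes 7 of 10 monocyte markers rose and all 5 dendritic cell markers tested fell, from 953 to 1251 CPM in control libraries to 32.4 to 61.2 CPM. Neutrophil markers summed to 15.3 to 33.2 CPM in control monocytes and 1596 to 3860 CPM in injured ones. In B cells the B cell markers summed to 11820 to 12320 CPM in controls and 7346 to 10140 CPM in rhabdomyolysis, and neutrophil markers to 1.29 to 2.64 CPM and 98.1 to 444 CPM. Neutrophil markers summed to 0 to 12.96 CPM in control NK cells and 358 to 774 CPM in injured ones. Macrophage markers in NK cells summed to 226 to 292 CPM in controls and 1917, 2339 and 173 CPM in rhabdomyolysis replicates 1, 2 and 3. In T cells they summed to 350 to 679 CPM in controls and 1556, 392 and 670 CPM in those replicates. In B cells they summed to 537 to 698 CPM in controls and 1570, 635 and 355 CPM in those replicates. Platelet markers summed to 211 to 263 CPM in control macrophages and 667 to 1775 CPM in injured ones. The part of these shifts in the changes of the members was not tested.

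Across the 37 sums of class and library with at least 20 cells, the genes most like each member in level were found by Pearson r of log2(CPM + 1), as a description over sums that share libraries. Dusp1 was most like Il1b (r = 0.89), Ier3 (0.88) and Nfkbiz (0.88), which are inflammatory or early genes. Tsc22d3 was most like Cxcr4 (0.84), Btg1 (0.80) and Klf2 (0.74), and Per1 was most like Srgn (0.84), Junb (0.84) and Nfkbia (0.79). For Fkbp5 they were Gna13 (0.76), Srgn (0.72) and Tmem189 (0.71), for Klf9 Chmp4b (0.78), AA467197 (0.77) and Uqcr10 (0.76), for Sgk1 Ywhag (0.75), Vapb (0.72) and Rab1a (0.71), and for Nr3c1 Sec62 (0.72), Creb1 (0.72) and Atxn2l (0.71). Among the members themselves r was 0.74 for Fkbp5 with Klf9, 0.73 for Per1 with Dusp1 and 0.72 for Klf9 with Per1, and it was 0.30 for Fkbp5 with Tsc22d3. Nr3c1 had r between -0.32 and -0.02 with each of the 6 others.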

How the data were processed

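The 6 deposited libraries, 3 control and 3 rhabdomyolysis, were analysed. Their values are UMI counts per gene and barcode, deposited raw and unfiltered by the authors for 6794880 barcodes and made with Cell Ranger 4, per the file headers, on build mm10, per the submitters' processing notes. The 6 antibody tags were not used here.

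The members and gene lists were chosen with earlier results of these data known. Cells had at least 500 UMIs, 200 genes and at most 15% mitochondrial UMIs, and differed from free RNA (barcodes of at most 100 UMIs, 10000 Monte Carlo draws, adjusted p of at most 0.001). Likely doublets (0.8% per 1000 cells) and barcodes with Malat1 under 0.1% of UMIs were removed. A class needed at least 2 of its markers above the 99% Poisson limit of 25% free RNA, and more than any other class or other cell type; these gate thresholds were set after seeing the data. Counts were summed per class and library (at least 20 cells) and tested with edgeR 4.0.16 (TMM, filterByExpr, quasi-likelihood, Benjamini-Hochberg over all genes tested); DESeq2 1.42.0 was an alternative. Scripts were tested on simulated data. All 7 members and, per list and class, at most the 2 highest and 2 lowest called genes were named, beside Nfkbia and Il7r in T cells and Ccl2 in macrophages and monocytes, chosen after their values were seen. Promoters of chromosome 18 were not searched, so that of Nr3c1 is not analysed here.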

Additional observations from a re-analysis of the deposited data

Results flagged for a closer look

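The change from control to rhabdomyolysis differed among the 5 tested classes for 5 of the 7 genes, by the edgeR test of the class by group terms over 8412 genes. The adjusted p was 2.89e-08 for Fkbp5, 0.00209 for Tsc22d3, 0.00403 for Sgk1, 0.033 for Klf9 and 0.0433 for Nr3c1, where 33.3% of all genes passed that test. Leaving out 1 library at a time gave 3 to 6 genes. In the edgeR contrast of myeloid minus lymphoid classes the difference was 2.05 for Fkbp5, 1.61 for Sgk1 and -0.83 for Tsc22d3 on the log2 scale, each with an adjusted p under 0.05, where 21% of all genes passed. Klf9 and Sgk1 were too low to be tested alone in B and NK cells, whose sums entered both tests.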

How the results depend on the processing

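The 19 called changes of members kept their direction under all alternatives run, and 3 lost their call under 1 setting each: Fkbp5 in T cells under the stricter gate (0.78), Dusp1 in B cells without rhabdomyolysis replicate 2 (0.71) and Per1 in monocytes without control replicate 1 (1.70). Over 29 member changes and 484 refits, 460 kept direction and side of the threshold, 7 newly passed and 14 turned sign. Of those, Nr3c1 in T cells, at 0.00, was -0.18 with library totals, -0.025 with DESeq2, -0.10 without an expression filter, -0.013 with the replicate block, -0.034 with at least 1000 UMIs per cell, -0.059 without doublet removal, -0.22 in T cells with Cd8a or Cd8b1, and between -0.12 and 0.032 with 1 library left out. Nr3c1 in NK cells was 0.15 without control replicate 2 and -1.52 without rhabdomyolysis replicate 3, and Tsc22d3 in monocytes ran from -0.22 without rhabdomyolysis replicate 2 to 0.33 without control replicate 3. The myeloid minus lymphoid difference of Dusp1 was -0.11 without rhabdomyolysis replicate 2, 0.47 without rhabdomyolysis replicate 3, -0.016 with Malat1-poor barcodes kept and -0.20 under the stricter gate. That of Nr3c1 was -0.74 without rhabdomyolysis replicate 2 and 0.027 without rhabdomyolysis replicate 3. The cause was not tested. In NK cells 1 member was called by DESeq2 (0.18% of the 32285 genes listed, those without a UMI there included). Members called there numbered 2 without a filter (1.14%), 1 with the replicate block (169 of 2958 genes), 1 without doublet removal (4.51%), and 0 to 1 with 1 library left out (0.896 to 5.96%). Members whose change differed among the classes numbered 3 to 6 with 1 library left out.

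Counts of all genes called moved by over 1.5 times in T cells under the stricter gate (453, against 819), in B cells without a filter (351, against 210) and under the stricter gate (125), and in NK cells with DESeq2 (58, against 122) and with free RNA subtracted (79). With 1 library left out the counts were 483 to 768 in T cells, 100 to 374 in B cells, 28 to 217 in NK cells, 2442 to 5712 in macrophages and 1036 to 1609 in monocytes. Whether replicate numbers pair the libraries was not settled. Same-numbered libraries correlated between -0.03 and 0.17 after removal of group means. The best match had the same number for every replicate of B cells, replicates 1 and 3 of NK cells and replicates 1 and 2 of macrophages. In T cells this held only for replicate 1, and in monocytes only for replicate 2. With the replicate block 5 members were called in T cells, 3 in B cells, 1 in NK cells, 6 in macrophages and 5 in monocytes. Library totals in place of TMM moved the median of all genes by -0.18 in T and NK cells, and other classes by 0.09 or less in size. The stricter gate left too few NK cells and monocytes for a test, so its myeloid minus lymphoid values set macrophages against T and B cells, and T cells with Cd4 alone had too few libraries. Klf9, Per1 and Sgk1 rested on few UMIs in lymphoid classes, which limits them most.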

Other observations

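Relatives of the 7 genes were read from a list of 19. In T cells 3 of 11 tested rose and 1 fell, in B cells 1 of 9 rose and in NK cells 2 of 6 rose. In macrophages 5 of 16 rose and 5 fell, and in monocytes 4 of 12 rose and 3 fell. Of all genes, 6.27% rose and 3.9% fell in T cells, 2.13% rose in B cells and 2.4% rose in NK cells. In macrophages 20.6% of all genes rose and 20.4% fell, and in monocytes 11.4% rose and 12.7% fell. Dusp5, a phosphatase of the same family as Dusp1 that acts on ERK, rose by 1.34 in T cells, 1.84 in NK cells, 3.75 in macrophages and 2.59 in monocytes. Dusp6, which also acts on ERK, fell by 1.74 in T cells. Tsc22d1, a relative of Tsc22d3, fell by 1.43 in monocytes, and Sgk3, a relative of Sgk1, fell by 0.84 there. Klf10 rose by 1.58 in macrophages.

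Of 15 circadian clock genes, 2 of 9 tested rose and 3 fell in macrophages, where 20.6% of all genes rose and 20.4% fell. In T cells 1 of 7 rose, where 6.27% of all genes rose. Bhlhe40, a clock repressor that is also induced in activated immune cells, rose by 1.65 in T cells, 1.81 in NK cells and 3.03 in macrophages. Dbp, a clock output factor, fell by 1.57 in macrophages and Arntl, a core activator, by 1.43. In B cells 0 of 1 and in monocytes 0 of 3 passed edgeR. The hour at which kidneys were taken is not given in the sources used here.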
